A study of Mus musculus with 9 samples.

Results

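The UDP-glucuronosyltransferases (Ugt) and cytosolic sulfotransferases (Sult) are the gene families of liver enzymes that attach glucuronic acid or sulfate to small molecules, and they were described here in mouse liver. Members were the rows whose symbol begins with Ugt1, Ugt2, Ugt3 or Sult1 to Sult6 and whose value was above 0 in at least 1 of 9 livers. Of 23183 rows, 39 matched by symbol and 34 were members, 20 of them Ugt and 14 Sult. The other 5 rows (Sult1c1, Sult2a3, Sult2a4, Sult2a5 and Sult2a6) were listed at 0 in all 9 livers.

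Poly(A) RNA was sequenced from whole liver of 9 male C57BL/6J mice, 3 in each of 3 groups, at postnatal day 100 and after an 8 h fast. ND mice (animals 6, 7 and 9) ate a normal diet with 14% fat. HFD mice (animals 1, 2 and 3) ate a diet with 60% fat for 10 weeks, and PRF 50 mice (animals 3, 9 and 10) ate the same 60% fat diet. In the last 5 of those 10 weeks the PRF 50 mice also took 50 mg/kg/day by mouth of PRF, a fraction rich in polymethoxyflavones from the leaf of Jinkyool (Citrus sunki). HFD against ND asks what differed with diet, PRF 50 against HFD what differed with PRF on that diet, and PRF 50 against ND how the treated mice stood beside mice on the normal diet. HFD against ND and PRF 50 against HFD share the HFD mice, so their values are given side by side and not as separate evidence.

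Levels are the deposited log2 values of FPKM (fragments scaled by transcript length and library size) plus 1, and each number called FPKM was taken back from that scale. The tables hold no read counts, so the number of reads behind each liver is unknown. By an estimate that compares low FPKM values liver by liver, depth relative to HFD animal 1 was 0.969 to 1.161 in 6 of the other livers, 1.521 in PRF 50 animal 9 and 1.597 in HFD animal 3, and between 14372 and 14980 genes were above 0 in a liver. In HFD animal 2 the highest row was the small nuclear RNA Rnu6, at 22.44 on the log2 scale, and in no other liver did a row pass 14.64. Of 9 hepatocyte markers, Alb was listed at 0 in all 9 livers, and the summed level of the list was 17788 to 27360 FPKM, with Apoa1 the most abundant. Because a gene such as Alb can be listed at 0 in liver, a value of 0 below says only how the gene was listed.

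Ugt enzymes sit in the membrane of the endoplasmic reticulum and join glucuronic acid, taken from UDP-glucuronic acid, to bilirubin, bile acids, steroids, drugs and plant phenols. Sult enzymes of the cytosol transfer sulfate from the donor PAPS to phenols, steroids, amines and bile acids, and both reactions make products that dissolve in water and leave through bile or blood. The Ugt1a genes each have a first exon of their own and share their last exons, while Ugt2 and Sult genes lie in clusters of related copies, so a short read can fit several genes.

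How far that sharing goes was counted in the GENCODE M21 transcripts of build GRCm38. The measure was the share of all stretches of 100 bases in a gene's coding transcripts that also occur, letter for letter, in another gene. The transferase genes were searched in their coding transcripts and other genes in all their transcripts, coding or not. Ugt1a6a shared 95.7% of its stretches, Ugt1a6b 70.9%, Ugt1a5 63.1%, Ugt1a9 58.5% and Ugt1a1 57.2%. Every Ugt1a member was at 52.3% or more, so a level listed for any one Ugt1a gene depends on how shared reads were divided. Ugt2b5 and Ugt2b38 had 434 stretches in common, 24.7% of Ugt2b5 and 24.2% of Ugt2b38. Ugt2a1 (94.9%) and Ugt2a2 (93.5%) also overlapped heavily, but both were at very low levels. By contrast, no stretch was shared for Ugt2b1, Ugt2b35, Ugt2b36, Ugt3a1, Ugt3a2, Sult1b1, Sult1c2, Sult1d1, Sult2a7, Sult2a8 or Sult5a1, and Sult1a1 (1.8%, with the row Gm6939), Ugt2a3 (0.6%) and Ugt2b34 (0.3%) shared little.

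**Figure D1:**
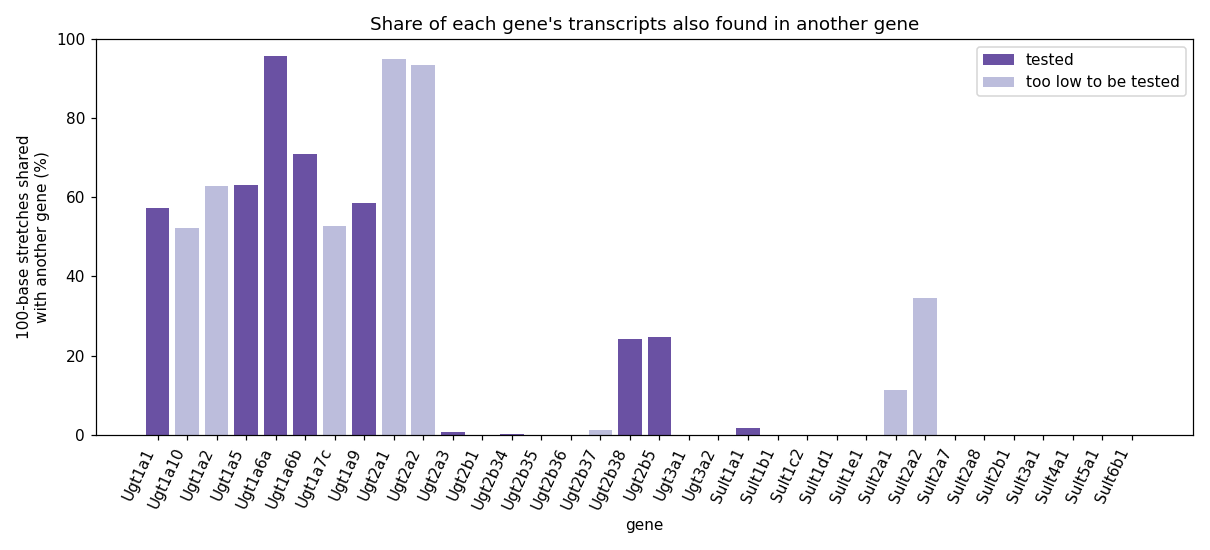
Share of the 100-base stretches in the coding transcripts of each member (vertical axis, percent) that also occur in a transcript of another gene. Members tested for differences are in dark bars and members too low to be tested in pale bars. Among the tested members, the 5 Ugt1a genes stand at 57.2% or more, Ugt2b38 and Ugt2b5 at 24.2% and 24.7%, and no other is above 1.8%.

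The join between a first exon of the Ugt1a locus and the first shared exon is shown because a read that lies wholly to its right, in the shared exons, fits all of these genes. On the plus strand of chromosome 1 (GRCm38), the shared exon chr1:88215044-88215175 occurs in 9 genes, and 735 coding bases from there on are common to them. The coding bases before it were 54.2% of the total in Ugt1a1, 53.7% in Ugt1a5 and 53.6% in Ugt1a9. In Ugt1a6a the exon before it is not the gene's own, since the annotation gives the same exon to a transcript of Ugt1a7c, with which Ugt1a6a shared 93.9% of its stretches. Each line gives the last 24 bases of the exon before the join in lower case and the first 24 of the shared exon in capitals. The exons before the join lie at chr1:88211959-88212871 (Ugt1a1), chr1:88166012-88166903 (Ugt1a5), chr1:88200601-88201500 (Ugt1a2), chr1:88138473-88139331 (Ugt1a6a), chr1:88106941-88107799 (Ugt1a6b) and chr1:88070800-88071678 (Ugt1a9). Ugt1a5 and Ugt1a2 have the same letters across this join, as do Ugt1a6a and Ugt1a6b, so a read confined to these bases fits both genes of either pair.
Ugt1a1: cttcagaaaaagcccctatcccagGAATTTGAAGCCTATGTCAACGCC
Ugt1a5: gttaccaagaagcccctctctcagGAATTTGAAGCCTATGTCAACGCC
Ugt1a2: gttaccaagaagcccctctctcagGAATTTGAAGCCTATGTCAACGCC
Ugt1a6a: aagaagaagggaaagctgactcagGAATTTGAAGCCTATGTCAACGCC
Ugt1a6b: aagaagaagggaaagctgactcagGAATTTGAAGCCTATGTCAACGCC
Ugt1a9: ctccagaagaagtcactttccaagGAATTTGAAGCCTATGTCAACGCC

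Levels within the families spread over several orders of magnitude. By mean FPKM over the 9 livers, the order among Ugt members began with Ugt2b5 (488.5), Ugt2b36 (416.5), Ugt2b1 (259.7), Ugt3a2 (227.1), Ugt2a3 (200.7), Ugt2b34 (200.1), Ugt1a1 (146.5) and Ugt1a6b (114.6). The order was not the same in each group. In HFD the mean of Ugt2b36 (435.3 FPKM) was above that of Ugt2b5 (431.1 FPKM). Ugt2b1 averaged 349.5 FPKM in ND and 176.3 FPKM in HFD, where it was below Ugt3a2, Ugt2b34 and Ugt2a3. Among Sult members 1 gene stood apart: Sult2a8, which sulfates bile acids, averaged 592.4 FPKM and made up 66.6% of the summed Sult level, from 61.6% to 71.8% in single livers. Sult1a1, the phenol sulfotransferase, followed at 174.3 FPKM and Sult1d1, which acts on catecholamines, at 82.3 FPKM. Neighbours in this order, such as Ugt2a3 and Ugt2b34, overlapped between livers and are not separated by their spread.

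Of the 34 members, 21 had a mean of at least 1 FPKM in each comparison and were tested, and 13 were tested in none. Those 13 were Sult1e1, Sult2a1, Sult2a2, Sult2b1, Sult3a1, Sult4a1, Sult6b1, Ugt1a10, Ugt1a2, Ugt1a7c, Ugt2a1, Ugt2a2 and Ugt2b37. Their highest single value was 1.65 FPKM, for Sult1e1, followed by 1.02 FPKM for Ugt2b37 and 0.902 FPKM for Ugt1a10. Ugt2b38 passed that minimum through 1 group alone in both comparisons with HFD, with a mean of 0.754 FPKM in HFD, 5.49 FPKM in ND and 3.36 FPKM in PRF 50.

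**Figure D2:**
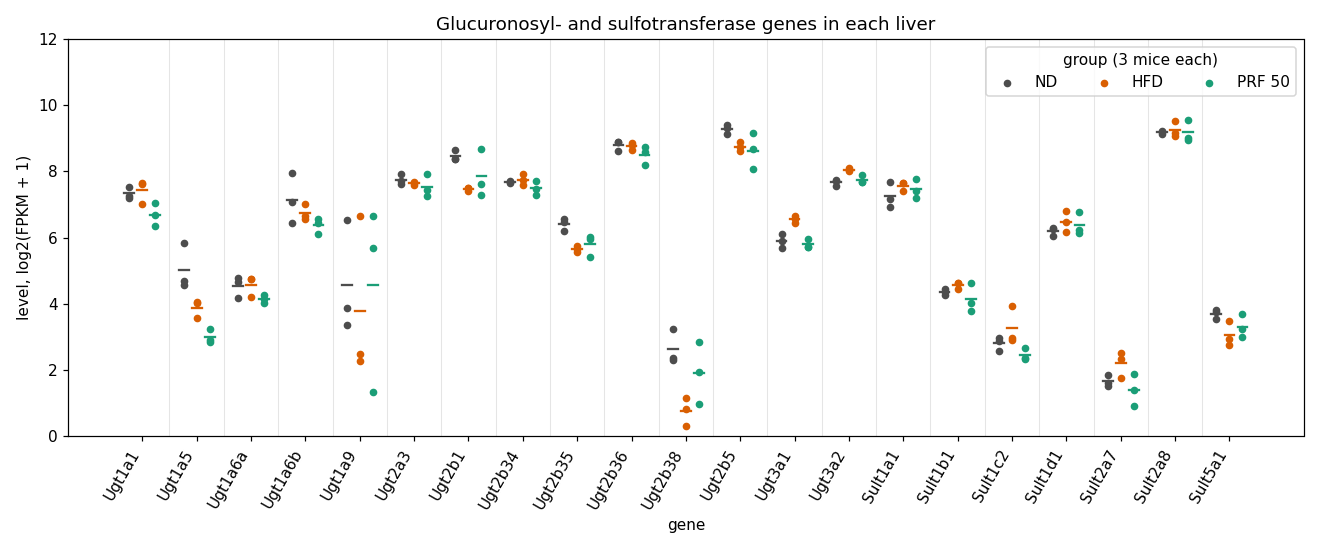
Level of the 21 tested members in each liver (vertical axis, log2 of FPKM plus 1), with 1 point per mouse, 3 mice per group, and a bar at each group mean. Sult2a8 and Ugt2b5 are at the top, the 3 HFD points of Ugt2b38 lie below every ND point, and Ugt1a9 spans 1.35 to 6.65 within PRF 50.

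Differences were tested with limma over all rows at or above 1 FPKM, and a change was called at an adjusted p under 0.05. In HFD against ND, 3 of the 21 members were called (14.3%), against 1.33% of 9978 rows, and all 3 (Ugt2b1, Ugt2b35 and Ugt2b38) were lower in HFD, as were 0.631% of all rows. Ugt2b38 could be tested here only because it was high in ND, and of the other 20 members 2 were called (10%). For calls higher in HFD, limma gave 0 members, against 0.702% of all rows called higher, and an unadjusted p under 0.05 in either direction was found for 9 members (42.9%), or 8 without Ugt2b38, and 15.1% of all rows. By the rule of unadjusted p under 0.05 and more than 2-fold, 2 members (Ugt1a5 and Ugt2b38) passed, or 1 without Ugt2b38, against 1.34% of all rows. The 3 HFD and 3 ND values did not overlap for 8 members (38.1%), or 7 without Ugt2b38, against 20.7% of all rows. The median log2 difference of the members was 0.03, against -0.01 for all rows, and 11 of the 21 were positive (48.3% of all rows were), or 12 under quantile normalization, where Ugt2b36 changed sign. The number of members called was 1 without ND animal 6, HFD animal 1 or HFD animal 2, 0 without ND animal 7 or HFD animal 3, and 2 without ND animal 9. The share of all rows called in those smaller fits is not given here, so these counts describe the members only.

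In PRF 50 against HFD, 2 of the 21 members were called by limma (9.52%), against 3.59% of 10084 rows, and both, Ugt1a5 and Ugt3a1, were lower in PRF 50, as were 2.16% of all rows. Higher calls by limma numbered 0 among the members and 1.43% of all rows, and an unadjusted p under 0.05 in either direction was found for 8 members (38.1%), or 7 without Ugt2b38, and 20.2% of all rows. Only Ugt2b38 passed the rule of unadjusted p and more than 2-fold (1 member, against 2.1% of all rows), and it was tested here only because it was high in PRF 50, so that 0 of the other 20 members passed that rule. Groups did not overlap for 4 members (19%), below the 26.2% of all rows. The median was -0.26 against -0.02 for all rows and 5 of 21 members were positive (47% of all rows were), but under quantile normalization the median was -0.12 and 8 were positive, as Sult1a1, Sult1d1 and Ugt2a3 changed sign. The number of members called was 1 without HFD animal 1 or PRF 50 animal 10, 0 without HFD animal 2, HFD animal 3 or PRF 50 animal 3, and 2 without PRF 50 animal 9. Again, the share of all rows called in those smaller fits is not given here.

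In PRF 50 against ND, limma called 0 of the 21 members, against 0.458% of 10051 rows (0.159% higher and 0.298% lower), and 6 members (28.6%) and 12.5% of all rows had an unadjusted p under 0.05. Ugt1a5 was the 1 member that passed the rule of unadjusted p and more than 2-fold, against 1.76% of all rows, and 3 members did not overlap between these groups (14.3%), against 19.9% of all rows. The median was -0.31 against -0.03 for all rows, with 3 of 21 members positive (43.4% of all rows were), 4 under median-of-ratios scaling (Sult2a8 changed sign) and 6 under quantile normalization (Sult2a8, Ugt1a9 and Ugt3a1 changed sign). Whether a member's difference was larger in 1 comparison than in another was not tested. In bulk liver, fewer cells of a type and less RNA per cell cannot be told apart, which applies to every difference given here.

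**Figure D3:**
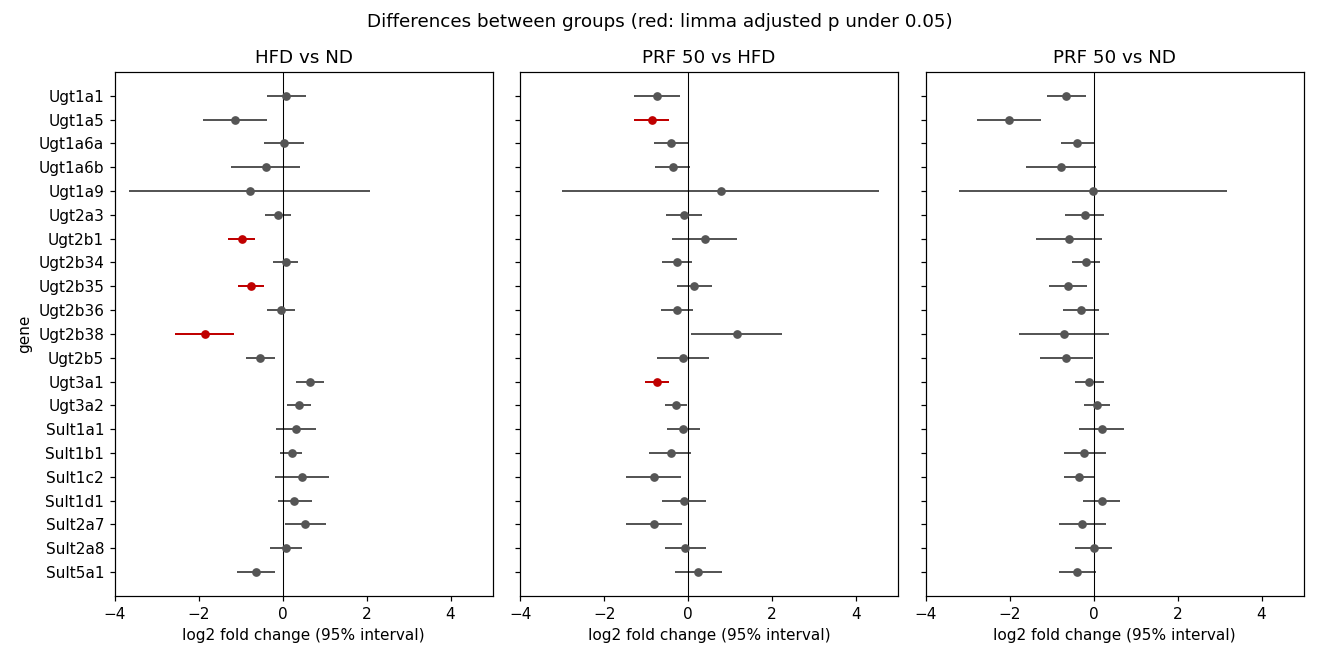
Difference between group means for the 21 tested members (horizontal axis, log2 fold change with its 95% interval from limma) in 3 panels, with members at an adjusted p under 0.05 in red. Ugt2b1, Ugt2b35 and Ugt2b38 are red in HFD against ND and Ugt1a5 and Ugt3a1 in PRF 50 against HFD, while the widest intervals belong to Ugt1a9. In both comparisons with HFD, Ugt2b38 could be tested only because it was high in the other group, so its direction there was fixed.

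The Ugt2b enzymes glucuronidate steroids, bile acids and many drugs, and their genes lie together on chromosome 5. Ugt2b1 (chr5:86916638-86926530, minus strand, GRCm38) was at 8.36, 8.36 and 8.63 in ND animals 6, 7 and 9, at 7.49, 7.51 and 7.41 in HFD animals 1, 2 and 3, and at 7.62, 7.28 and 8.68 in PRF 50 animals 3, 9 and 10 (log2 levels in this order of animals here and below). All 3 HFD livers were below all 3 ND livers, and the PRF 50 livers were split, with animal 10 above every ND liver and animal 9 below every HFD liver. The log2 fold change in HFD against ND was -0.98 (SE 0.125, 95% interval -1.27 to -0.69, limma adjusted p 0.014). In PRF 50 against HFD it was 0.39 (SE 0.324, limma adjusted p 0.554) and in PRF 50 against ND -0.59 (limma adjusted p 0.5). The HFD call for Ugt2b1 was lost without ND animal 7 (limma adjusted p 0.0579), HFD animal 2 (0.0694) or HFD animal 3 (0.0777) and with all 9 mice in 1 fit (0.145), in a range of 0.0108 to 0.145 over the alternatives.

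Ugt2b35 (chr5:87000860-87013275, plus strand) was at 6.47, 6.57 and 6.20 in ND, 5.74, 5.55 and 5.66 in HFD, and 5.97, 5.40 and 6.02 in PRF 50. Every HFD and every PRF 50 liver was below every ND liver, while HFD and PRF 50 livers overlapped. HFD against ND gave -0.76 (SE 0.126, 95% interval -1.05 to -0.48, limma adjusted p 0.033), PRF 50 against HFD 0.15 (limma adjusted p 0.681) and PRF 50 against ND -0.62 (SE 0.186, limma adjusted p 0.226). The HFD call was lost without ND animal 6 (limma adjusted p 0.0821) or 7 (0.131), or without HFD animal 1 (0.0543), 2 (0.146) or 3 (0.137), with all 9 mice in 1 fit (0.0657) and with no minimum level (0.0821), in a range of 0.0249 to 0.146 over the alternatives, with log2 fold changes from -0.87 to -0.69.

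Ugt2b5, the Ugt gene with the highest mean level, and Ugt2b38, a copy on the same strand that was near the lower limit, share part of their coding sequence as given above. Ugt2b38 (chr5:87409942-87424203, minus strand) was at 3.23, 2.31 and 2.36 in ND, 0.31, 1.17 and 0.82 in HFD, and 1.94, 0.97 and 2.86 in PRF 50. The HFD livers were the lowest apart from PRF 50 animal 9, which lay among them, and PRF 50 animal 10 lay among the ND livers. Ugt2b38 passed the minimum only through ND in HFD against ND, and only through PRF 50 in PRF 50 against HFD. Its direction in both was therefore fixed, and those fits are given as description and not as evidence of a change. Its log2 fold change was -1.86 in HFD against ND (SE 0.293, 95% interval -2.54 to -1.19, limma adjusted p 0.0309), 1.16 in PRF 50 against HFD (SE 0.452, 95% interval 0.1 to 2.22, limma adjusted p 0.209) and -0.71 in PRF 50 against ND (limma adjusted p 0.547). The HFD call was lost without ND animal 6 (limma adjusted p 0.0555), 7 (0.0726) or 9 (0.0501) and without HFD animal 1 (0.0542) or 3 (0.103), with all 9 mice in 1 fit (0.0802) and with no minimum level (0.1), in a range of 0.0293 to 0.103, and log2 fold changes ran from -2.83 to -1.57.

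Ugt2b5 (chr5:87124960-87140318, minus strand) was at 9.31, 9.40 and 9.12 in ND, 8.90, 8.62 and 8.73 in HFD, and 8.66, 8.06 and 9.16 in PRF 50. As for Ugt2b38, all HFD livers were below all ND livers, and among PRF 50 livers animal 9 was lowest and animal 10 highest. The difference did not pass the test in HFD against ND (-0.53, SE 0.142, limma adjusted p 0.145), in PRF 50 against HFD (-0.12, limma adjusted p 0.835) or in PRF 50 against ND (-0.65, limma adjusted p 0.372). Ugt2b38 made up 1.31%, 0.584% and 0.737% of the summed FPKM of the pair in ND, 0.0511%, 0.318% and 0.18% in HFD, and 0.697%, 0.362% and 1.09% in PRF 50. Since Ugt2b38 was so small a share, a small part of the reads of Ugt2b5 assigned to it would change its level, and how shared reads were divided was not tested. The sum of the pair, which does not turn on that division apart from gene length, was 642.0, 677.3 and 560.2 FPKM in ND, 477.0, 394.3 and 424.1 FPKM in HFD, and 405.2, 266.9 and 578.3 FPKM in PRF 50.

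Over all 7 Ugt2b members the summed level was 1739, 1775 and 1628 FPKM in ND, 1391, 1214 and 1322 FPKM in HFD, and 1219, 910.7 and 1687 FPKM in PRF 50. The HFD sums were all below the ND sums, with a ratio of group means of 0.764, and the PRF 50 sums ran from below every HFD liver to within the ND range. Ugt2b36 and Ugt2b34, which like Ugt2b5 were abundant and not called, were at 8.20 to 8.90 and 7.29 to 7.91 over the 9 livers. In HFD against ND, 5 of 6 tested Ugt2 genes were negative (median -0.32, with 48.3% of all rows positive) once Ugt2b38, tested only because it was high in ND, is left out, or 4 if Ugt2b36 is counted with the sign it took under quantile normalization. In PRF 50 against HFD 4 of the same 6 were negative (median -0.11, with 47% of all rows positive). In PRF 50 against ND all 7 tested Ugt2 genes, Ugt2b38 included, were negative (median -0.59, with 43.4% of all rows positive). Ugt2a3, the most abundant Ugt2a gene and a glucuronidator of bile acids, was at 7.62, 7.71 and 7.92 in ND, 7.68, 7.58 and 7.66 in HFD, and 7.45, 7.25 and 7.92 in PRF 50, with groups that overlapped. Its log2 fold changes were -0.11 in HFD against ND (limma adjusted p 0.714) and -0.10 in PRF 50 against HFD (limma adjusted p 0.799), the latter changing sign under quantile normalization.

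The sequences before the starts of Ugt2b5 and Ugt2b38 are printed because both genes had HFD livers below ND livers and share coding sequence, and they show whether the pair is also alike outside it. RefSeq promoters (build GRCm38.p6, 250 bases before to 50 after the start) were matched by symbol for 33 of the 39 rows, with 36 promoters in all, those of the 5 rows listed at 0 included. There was no entry for Ugt1a6b, Ugt3a2, Sult2a1, Sult2a2, Sult2a7 or Sult4a1. Capitals mark the longest run common to both, 62 bases that begin 68 bases before the start of Ugt2b5 (chr5:87140291-87140590, minus strand) and 71 bases before that of Ugt2b38 (chr5:87424154-87424453, minus strand). The run occurred in the promoters of 3 genes, these and Ugt2b37.
Ugt2b5: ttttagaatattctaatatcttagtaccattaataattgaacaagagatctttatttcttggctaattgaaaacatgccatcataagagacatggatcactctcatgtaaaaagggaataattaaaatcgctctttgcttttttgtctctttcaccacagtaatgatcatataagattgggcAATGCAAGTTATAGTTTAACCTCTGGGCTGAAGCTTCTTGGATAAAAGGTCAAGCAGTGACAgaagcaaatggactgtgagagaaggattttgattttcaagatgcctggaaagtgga
Ugt2b38: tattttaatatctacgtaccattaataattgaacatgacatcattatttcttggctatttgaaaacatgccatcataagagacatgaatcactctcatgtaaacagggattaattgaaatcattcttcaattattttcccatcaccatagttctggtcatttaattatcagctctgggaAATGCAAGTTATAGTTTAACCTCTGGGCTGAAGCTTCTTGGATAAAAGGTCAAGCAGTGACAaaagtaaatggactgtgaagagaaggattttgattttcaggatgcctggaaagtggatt

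Ugt1a1 is the enzyme that glucuronidates bilirubin, and it had the highest mean level among the Ugt1a genes. Its log2 level was 7.20, 7.54 and 7.26 in ND, 7.61, 7.0 and 7.66 in HFD, and 7.03, 6.36 and 6.68 in PRF 50. All PRF 50 livers were below all ND livers, and PRF 50 animal 3 lay just above HFD animal 2, so PRF 50 and HFD overlapped. No test passed: the log2 fold change was 0.09 in HFD against ND (SE 0.195, limma adjusted p 0.868), -0.74 in PRF 50 against HFD (SE 0.225, 95% interval -1.26 to -0.21, limma adjusted p 0.127) and -0.65 in PRF 50 against ND (SE 0.186, limma adjusted p 0.208).

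Ugt1a5 (chr1:88166012-88218997, plus strand), a neighbour with the same shared exons, was at 4.56, 4.68 and 5.83 in ND, 4.02, 4.06 and 3.56 in HFD, and 2.85, 3.25 and 2.91 in PRF 50. The 3 groups did not overlap, with ND highest and PRF 50 lowest, and ND animal 9 stood well above the other ND livers. In PRF 50 against HFD the log2 fold change was -0.87 (SE 0.165, 95% interval -1.26 to -0.49, limma adjusted p 0.0383). In HFD against ND it was -1.14 (SE 0.32, limma adjusted p 0.158) and in PRF 50 against ND -2.02 (SE 0.316, 95% interval -2.75 to -1.28, limma adjusted p 0.0519). The call in PRF 50 against HFD was lost without HFD animal 1 (limma adjusted p 0.0894), 2 (0.125) or 3 (0.0529) or PRF 50 animal 3 (0.11) or 10 (0.0876), with all 9 mice in 1 fit (0.148) and with no minimum level (0.0794), in a range of 0.03 to 0.148 over the alternatives. PRF 50 against ND passed without ND animal 9 (log2 fold change -1.61, limma adjusted p 0.0111), with all 9 mice in 1 fit (0.022), with a pseudocount of 0.1 (0.0455) and with a minimum of 10 FPKM (0.0303), in a range of 0.0111 to 0.153.

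Promoters of these Ugt1a neighbours are shown because both genes had every PRF 50 liver below every ND liver while their coding sequence could not tell them fully apart, and the start regions are their own. Ugt1a1 (chr1:88211709-88212008, plus strand) held the letters GTTAAT, part of the sequence that HNF1 factors bind and called here the HNF1 element, and Ugt1a5 (chr1:88165762-88166061, plus strand) held GCGTG, the core of the sequence bound by the aryl hydrocarbon receptor (AhR). Capitals mark these letters as read on either strand.
Ugt1a1: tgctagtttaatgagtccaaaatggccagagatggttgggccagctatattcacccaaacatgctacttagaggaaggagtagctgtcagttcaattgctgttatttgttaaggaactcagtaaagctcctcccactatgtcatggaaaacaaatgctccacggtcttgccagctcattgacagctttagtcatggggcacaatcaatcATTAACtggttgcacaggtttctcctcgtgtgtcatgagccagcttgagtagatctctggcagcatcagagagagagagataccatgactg
Ugt1a5: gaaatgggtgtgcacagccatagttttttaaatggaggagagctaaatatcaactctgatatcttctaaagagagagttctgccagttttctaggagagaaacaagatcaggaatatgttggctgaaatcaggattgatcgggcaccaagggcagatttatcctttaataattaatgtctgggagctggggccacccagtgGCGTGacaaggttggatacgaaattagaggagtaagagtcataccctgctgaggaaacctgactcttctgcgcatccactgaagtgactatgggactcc

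Ugt1a6a and Ugt1a6b, near copies that handle small planar phenols, were at 4.03 to 4.77 and 6.10 to 7.95 over the 9 livers and did not pass the test in any comparison. Ugt1a9, which handles bulkier phenols and was singled out after its values were seen, was the most uneven of the tested members between livers: 6.52, 3.86 and 3.37 in ND, 2.48, 6.65 and 2.26 in HFD, and 1.35, 6.65 and 5.68 in PRF 50. Each group held at least 1 liver with a high level and at least 1 with a low level, and no test passed, with a log2 fold change of 0.77 in PRF 50 against HFD (95% interval -2.99 to 4.52, limma adjusted p 0.836). Ugt1a9 took 28.2% of the summed Ugt1a level in HFD animal 2 and 36.4% in PRF 50 animal 9, against 1.11% in HFD animal 3 and 0.62% in PRF 50 animal 3. In the same livers Ugt1a1 took 36% and 29.7% where Ugt1a9 was high, and 59.1% and 51.7% where it was low. Both are shares of 1 sum, so a larger share of Ugt1a9 by itself leaves less for Ugt1a1. These livers were picked for the highest and lowest shares of Ugt1a9.

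Because these genes share reads, the summed level of the 8 Ugt1a members was also taken. It was 523.4, 382.2 and 327.2 FPKM in ND, 368.9, 353.2 and 341.3 FPKM in HFD, and 249.9, 273.0 and 261.3 FPKM in PRF 50. All PRF 50 sums were below all HFD and ND sums, and HFD and ND overlapped. The mean was 410.9 ± 101.2 FPKM in ND, 354.5 ± 13.8 FPKM in HFD and 261.4 ± 11.5 FPKM in PRF 50 (SD, n = 3 each), so that PRF 50 stood at 0.738 of HFD and 0.636 of ND. Ugt1a1 and Ugt1a5 together came to 168.5, 210.2 and 208.1 FPKM in ND, 209.1, 142.9 and 212.4 FPKM in HFD, and 135.6, 89.5 and 108.0 FPKM in PRF 50. Ugt1a6a, Ugt1a6b and Ugt1a9 together overlapped between all groups, at 118.7 to 353.9 FPKM in ND, 128.5 to 209.9 FPKM in HFD and 113.9 to 182.6 FPKM in PRF 50.

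**Figure D4:**
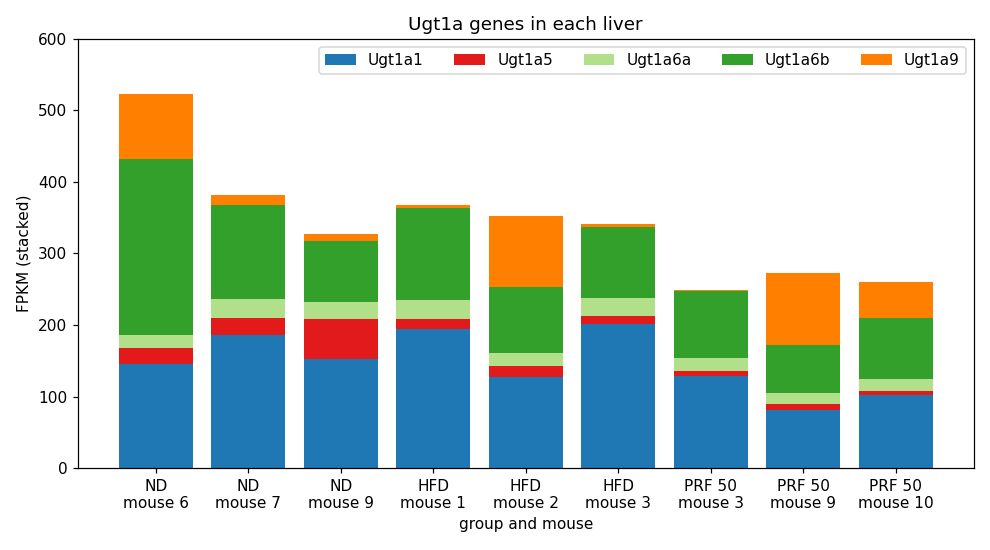
Level of the 5 tested Ugt1a genes stacked for each liver (vertical axis, FPKM), with the 3 ND, 3 HFD and 3 PRF 50 mice along the horizontal axis. The PRF 50 stacks are the lowest, at 249.9 to 273.0 FPKM for all Ugt1a members, and the part of Ugt1a9 is large in ND animal 6, HFD animal 2 and PRF 50 animals 9 and 10.

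Ugt3a1 and Ugt3a2 belong to a branch whose human enzymes use sugars other than glucuronic acid, and they lie side by side on chromosome 15 with no 100-base stretch in common. Ugt3a1 (chr15:9276888-9315032, plus strand) was at 5.69, 6.11 and 5.90 in ND, 6.43, 6.57 and 6.65 in HFD, and 5.71, 5.71 and 5.97 in PRF 50. The HFD livers were above all others, and the ND and PRF 50 livers overlapped. PRF 50 against HFD gave a log2 fold change of -0.75 (SE 0.109, 95% interval -1.0 to -0.49, limma adjusted p 0.0231), HFD against ND 0.65 (SE 0.134, limma adjusted p 0.0762) and PRF 50 against ND -0.10 (limma adjusted p 0.794), which changed sign under quantile normalization. The PRF 50 call was lost without HFD animal 2 (limma adjusted p 0.0847) or 3 (0.0799) or PRF 50 animal 3 (0.073), in a range of 0.0143 to 0.0847. HFD against ND passed with all 9 mice in 1 fit (limma adjusted p 0.0474), in a range of 0.0474 to 0.284 over its alternatives.

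Ugt3a2 (chr15:9335550-9370955, plus strand) was at 7.56, 7.74 and 7.70 in ND, 8.02, 8.04 and 8.09 in HFD, and 7.67, 7.69 and 7.90 in PRF 50. As for Ugt3a1, the HFD livers were above all others, but the differences did not pass the test. They were 0.38 in HFD against ND (SE 0.111, limma adjusted p 0.174), -0.30 in PRF 50 against HFD (SE 0.102, limma adjusted p 0.163) and 0.09 in PRF 50 against ND (limma adjusted p 0.795). The sum of the 2 genes was 238.6 to 280.5 FPKM in ND, 343.5 to 369.9 FPKM in HFD and 253.7 to 299.7 FPKM in PRF 50, at 1.365 times the ND mean in HFD and 0.757 times the HFD mean in PRF 50.

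The promoter of Ugt3a1 (chr15:9279579-9279878, plus strand) is shown because this gene was called in PRF 50 against HFD and none of its stretches are shared. It held 1 HNF1 element and 1 TATA box (TATAAA), both in capitals. Its RefSeq start lies inside the GENCODE gene, which begins at chr15:9276888.
Ugt3a1: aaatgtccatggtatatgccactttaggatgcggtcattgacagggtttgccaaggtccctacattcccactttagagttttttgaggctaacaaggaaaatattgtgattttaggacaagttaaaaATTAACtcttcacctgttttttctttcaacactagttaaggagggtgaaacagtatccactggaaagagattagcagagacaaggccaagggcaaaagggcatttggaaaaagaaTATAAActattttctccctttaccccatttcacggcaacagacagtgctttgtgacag

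Letters of 7 motifs were searched on both strands in the 36 promoters and in all 32851 promoters of the same length. The HNF1 element GTTAAT was in 12 of 36 (33.3%), against 7.1% of all. They were Ugt1a1, Ugt1a10, Ugt1a6a, Ugt1a9, Ugt2a3, Ugt3a1, Sult1a1, Sult1d1 and the related copies Sult2a3, Sult2a4, Sult2a5 and Sult2a6, which were listed at 0 in all 9 livers and are not members. TATAAA was in 9 (25%) against 13.6%, GCGTG in 5 (13.9%) against 32.4%, and TTCNNNGAA, the STAT5 motif, in 2 (5.56%) against 8.3%. None held TGACNNNGC, the core of the antioxidant response element (12.4% of all), or the nuclear receptor direct repeats DR1 (0.0396%) and DR4 (0.0152%). These matches describe letters in 300 bases, several promoters belong to closely related copies, and binding was not measured.

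Sult2a8 (chr7:14410686-14446769, minus strand), the most abundant member, was at 9.14, 9.18 and 9.22 in ND, 9.52, 9.06 and 9.15 in HFD, and 8.96, 9.01 and 9.55 in PRF 50. ND livers were close together and lay inside the range of both other groups, where HFD animal 1 and PRF 50 animal 10 were high. The log2 fold change was 0.07 in HFD against ND (limma adjusted p 0.867) and -0.07 in PRF 50 against HFD (limma adjusted p 0.877). Sult1a1 (chr7:126672865-126676432, minus strand) was at 7.69, 6.93 and 7.17 in ND, 7.66, 7.64 and 7.41 in HFD, and 7.19, 7.76 and 7.41 in PRF 50. The 3 groups overlapped, with log2 fold changes of 0.31 in HFD against ND (limma adjusted p 0.516) and -0.12 in PRF 50 against HFD (limma adjusted p 0.738), the latter changing sign under quantile normalization.

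Sult5a1, whose substrate is not well known, was at 3.76, 3.80 and 3.55 in ND, 2.95, 3.49 and 2.77 in HFD, and 3.0, 3.70 and 3.23 in PRF 50. All HFD livers were below all ND livers and the PRF 50 livers spanned both, with log2 fold changes of -0.63 (SE 0.185, limma adjusted p 0.176) in HFD against ND and 0.24 (limma adjusted p 0.609) in PRF 50 against HFD. Sult1c2 did not overlap between PRF 50 (2.34 to 2.66) and HFD (2.91 to 3.94), with a log2 fold change of -0.82 (SE 0.269, limma adjusted p 0.151). Sult2a7 was at 0.91 to 2.52, with -0.81 in the same comparison (SE 0.278, limma adjusted p 0.163), and Sult1b1, which acts on thyroid hormone, and Sult1d1 stayed within 3.78 to 4.63 and 6.06 to 6.80. In HFD against ND, 6 of 7 tested Sult genes were positive (median 0.28, with 48.3% of all rows positive) with no change of sign under either scaling, while in PRF 50 against HFD 1 of 7 was positive (median -0.12, with 47% of all rows positive), or 3 under quantile normalization.

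Low members are given only as listed. Sult3a1, which sulfates amines and is known to be higher in female than in male mouse liver, was listed at 0, 0 and 0.22 in ND, at 0.46, 0.40 and 0.30 in HFD, and at 0 in all 3 PRF 50 livers. Sult1e1, the estrogen sulfotransferase, singled out after its values were seen, was listed at 0, 0 and 0.10 in ND, 1.41, 0.42 and 0.91 in HFD, and 0.21, 0.07 and 0.22 in PRF 50. For both genes the HFD livers were above all others, and neither reached the minimum level for the test. Sult6b1 was above 0 in 4 livers, up to 0.133 FPKM, and Sult4a1, known from brain, in 1 liver (PRF 50 animal 9, 0.025 FPKM). All Sult members together came to 886.1, 803.9 and 849.5 FPKM in ND, 1099, 846.1 and 866.4 FPKM in HFD, and 740.9, 835.6 and 1066 FPKM in PRF 50, with overlap between groups. All Ugt members together came to 2697, 2645 and 2462 FPKM in ND, 2307, 2113 and 2235 FPKM in HFD, and 1896, 1592 and 2490 FPKM in PRF 50, so HFD lay below ND without overlap, at 0.853 of its mean, and PRF 50 overlapped with both.

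Genes that serve the transferases were read from the same fits. Of all rows, limma called 1.33% in HFD against ND, 3.59% in PRF 50 against HFD and 0.458% in PRF 50 against ND. In the same order, 15.1%, 20.2% and 12.5% of all rows had an unadjusted p under 0.05. These shares stand beside the counts of every list below. Of 7 genes that supply UDP-glucuronic acid, limma called 0 in HFD against ND and 0 in PRF 50 against HFD (list medians -0.04 and -0.27, with 2 and 3 genes at an unadjusted p under 0.05), and Ugdh, the dehydrogenase that makes UDP-glucuronic acid, was called lower in PRF 50 against ND. In PRF 50 against HFD limma called 1 of them lower under some alternatives, Ugp2 without PRF 50 animal 10 or with all 9 mice in 1 fit and Ugdh with a minimum of 10 FPKM. Ugdh was at 6.66, 6.77 and 6.24 in ND, 6.06, 5.86 and 6.30 in HFD, and 5.49, 5.60 and 5.45 in PRF 50. The PRF 50 livers were below all others, with log2 fold changes of -1.04 against ND (SE 0.153, limma adjusted p 0.0426) and -0.56 against HFD (SE 0.124, limma adjusted p 0.0559). The call was lost without ND animal 6 (limma adjusted p 0.148) or 7 (0.156) or PRF 50 animal 3 (0.137), 9 (0.0929) or 10 (0.0713), under quantile normalization (0.0522) and with no minimum level (0.104), in a range of 0.013 to 0.156. Among 9 genes of PAPS supply and turnover (7 tested) and 5 of conjugate hydrolysis (4 tested), limma called 0 in each of the 3 comparisons, with 0, 4 and 1 of the PAPS genes and 0, 1 and 0 of the hydrolysis genes at an unadjusted p under 0.05 in HFD against ND, PRF 50 against HFD and PRF 50 against ND, and list medians from -0.23 to 0.04 and from -0.3 to 0.06.

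Receptors and factors that regulate conjugation genes came next, 13 genes, all tested. Limma called 0 in HFD against ND (median 0.17) and 0 in PRF 50 against ND (median 0.11), with 5 and 1 at an unadjusted p under 0.05, and 2 lower in PRF 50 against HFD (median -0.06). In PRF 50 against HFD limma gave 3 of the 13 an unadjusted p under 0.05. With a minimum of 10 FPKM 1 receptor, Ppara, was called higher in HFD against ND. Without PRF 50 animal 9, Ppara was called lower in PRF 50 against HFD. The 2 lower in PRF 50 with no mouse left out were Nr1i3 (the receptor CAR) and Nr1i2 (PXR), which activate conjugation genes in response to foreign compounds. Nr1i3 was at 5.65, 5.28 and 5.05 in ND, 6.23, 5.71 and 6.22 in HFD, and 5.06, 5.32 and 4.97 in PRF 50, with every HFD liver above all others. Nr1i2 was at 4.87, 4.41 and 4.54 in ND, 5.27, 4.84 and 5.12 in HFD, and 4.51, 4.40 and 4.30 in PRF 50, with every HFD liver above every PRF 50 liver. The log2 fold changes in PRF 50 against HFD were -0.93 for Nr1i3 (limma adjusted p 0.0336) and -0.67 for Nr1i2 (limma adjusted p 0.0369). The Nr1i3 call was lost without HFD animal 1 (limma adjusted p 0.0732) or 3 (0.115) or PRF 50 animal 3 (0.0951) or 10 (0.076), under quantile normalization (0.0524) and with no minimum level (0.0704), in a range of 0.0251 to 0.115. That of Nr1i2 was lost without HFD animal 1 (limma adjusted p 0.0703), 2 (0.0572) or 3 (0.124) or PRF 50 animal 3 (0.0833), 9 (0.08) or 10 (0.083) and with no minimum level (0.0704), in a range of 0.0259 to 0.124.

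Conjugates leave the hepatocyte through ABC transporters, of which 7 were listed. Abcc3, which exports glucuronides into blood, was at 5.79, 5.64 and 5.51 in ND, 5.63, 5.23 and 5.82 in HFD, and 4.62, 4.47 and 4.59 in PRF 50. All PRF 50 livers were below all others, at -1.0 against HFD (limma adjusted p 0.0249) and -1.09 against ND (limma adjusted p 0.0128). Abcb1a was also called lower in PRF 50 against HFD (-0.75, limma adjusted p 0.0257), but it could be tested only because it was high in HFD. Its direction was therefore fixed, and the fit is given as description and not as evidence of a change. Mean levels of Abcb1a were 0.954 FPKM in ND, 2.17 FPKM in HFD and 0.884 FPKM in PRF 50. Limma called 0 of 5 tested export genes in HFD against ND, and the 1 gene at an unadjusted p under 0.05 was Abcb1a, tested there for the same reason and called higher without ND animal 9 or with all 9 mice in 1 fit. The call of Abcc3 against HFD was lost without HFD animal 1 (limma adjusted p 0.0526) or 3 (0.0681) or PRF 50 animal 3 (0.071), 9 (0.0533) or 10 (0.0525) and with no minimum level (0.0566), in a range of 0.0102 to 0.071, and against ND without ND animal 7 (0.0747) or PRF 50 animal 3 (0.0618), in a range of 0.00623 to 0.0747. For Abcb1a it was lost without HFD animal 1 (limma adjusted p 0.0512), 2 (0.0747) or 3 (0.092) or PRF 50 animal 3 (0.052), 9 (0.0571) or 10 (0.0564) and with no minimum level (0.0506), in a range of 0.0216 to 0.092.

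Of 12 other conjugating enzymes, limma called 1 in HFD against ND (median -0.02) and 0 in PRF 50 against HFD and in PRF 50 against ND, with 2 and 4 at an unadjusted p under 0.05. The called gene was Nat8, an acetyltransferase, at 4.74, 4.92 and 4.84 in ND, 3.54, 3.04 and 2.30 in HFD, and 2.55, 1.83 and 3.99 in PRF 50. Every ND liver was above all others, and the log2 fold change in HFD against ND was -1.88 (limma adjusted p 0.0228). The call was lost without ND animal 6 (limma adjusted p 0.0687), 7 (0.0983) or 9 (0.056) or HFD animal 2 (0.0689), with all 9 mice in 1 fit (0.0992) and with no minimum level (0.0896), in a range of 0.00784 to 0.0992. Without PRF 50 animal 10, 1 of the 12 was called in PRF 50 against ND, Nat8, lower.

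Because Ugt and Sult genes such as Sult3a1 differ between the sexes in mouse liver, lists of sex-biased liver genes were read beside them. Of 13 female-biased genes, 6 were tested in both comparisons with HFD, but 3 of these (Cyp2b13, Cyp2a4 and Hao2) passed the minimum only because they were high in HFD, so their direction was fixed and they are given by level. Their mean was 5.5 FPKM for Cyp2b13, 4.34 FPKM for Cyp2a4 and 2.42 FPKM for Hao2 in HFD, against 0.09, 0.315 and 0.066 FPKM in ND and 0.017, 0.158 and 0.035 FPKM in PRF 50. Of the other 3, Cyp2b9 and Acot3 were called higher in HFD against ND and lower in PRF 50 against HFD. The summed level of that list was 26.2, 12.8 and 15.1 FPKM in ND, 183.2, 228.6 and 251.0 FPKM in HFD, and 12.8, 33.4 and 7.3 FPKM in PRF 50. Of 12 male-biased genes, 6 were called lower in HFD against ND (Hsd3b5, Cyp7b1, C6, Serpina1e, Gstp1 and Selenbp2, list median -1.21), against 0.631% of all rows. These and C8a, 7 in all, were called higher in PRF 50 against HFD (list median 1.34), against 1.43% of all rows. The lists were chosen with earlier results of these data known. Those 7 genes, Cyp2b9 and Acot3 are all in the study's own list of genes that differed between PRF 50 and HFD. Counts and medians of these lists are therefore description and not separate evidence. Against ND, limma called 0 of 3 tested female-biased genes in PRF 50, with 1 at an unadjusted p under 0.05 and 1 called without ND animal 9 or with all 9 mice in 1 fit, and 1 of 12 male-biased genes, C6, higher. Of the 12 male-biased genes, 1 was positive in HFD against ND, where 48.3% of all rows were. In PRF 50 against HFD 9 of the 12 were positive, against 47% of all rows. All 6 tested female-biased genes were positive in HFD against ND and 0 in PRF 50 against HFD, with the direction fixed for Cyp2b13, Cyp2a4 and Hao2. The female-biased sum is mostly Cyp2b9, Acot3 and Cyp17a1, and other genes of that list, such as Cux2 (0.02 to 0.08 on the log2 scale) and Prom1 (0.15 to 0.40), stayed low in all 9 livers. The male-biased sum, led by Mup20, overlapped between ND (11198 to 18540 FPKM) and HFD (7122 to 13478 FPKM) and was 23331 to 32975 FPKM in PRF 50. Mup20 itself differed by 0.08 in HFD against ND and was the 1 positive gene of that list there. Any part of what these genes have in common in the levels of Sult3a1, Sult1e1, Ugt3a1, Ugt2b1 or Ugt2b38 was not tested. The Acot3 call in HFD against ND was lost without ND animal 7 (limma adjusted p 0.0516) or HFD animal 3 (0.0537) and with no minimum level (0.0507), in a range of 0.00585 to 0.0537. Calls of the male-biased list in HFD against ND numbered 3 without ND animal 6, ND animal 7 or HFD animal 2, 5 without ND animal 9 or HFD animal 3, 6 without HFD animal 1 and 3 with no minimum level. They numbered 7 with a minimum of 10 FPKM, which added Elovl3. Calls of that list in PRF 50 against HFD numbered 2 without HFD animal 2 or PRF 50 animal 3, 1 without HFD animal 3, 5 without PRF 50 animal 10, 6 without PRF 50 animal 9, 7 without HFD animal 1 and 3 with no minimum level. Without HFD animal 1 the 7 held Mup20 in place of Cyp7b1. With a minimum of 10 FPKM, quantile normalization or no trend 8 were called, Mup20 being added. The call of C6 in PRF 50 against ND had a limma adjusted p of 0.0102 to 0.142 over the alternatives, past 0.05 without ND animal 6 (0.0778) or 7 (0.142) or PRF 50 animal 3 (0.136), 9 (0.0778) or 10 (0.0514).

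**Figure D5:**
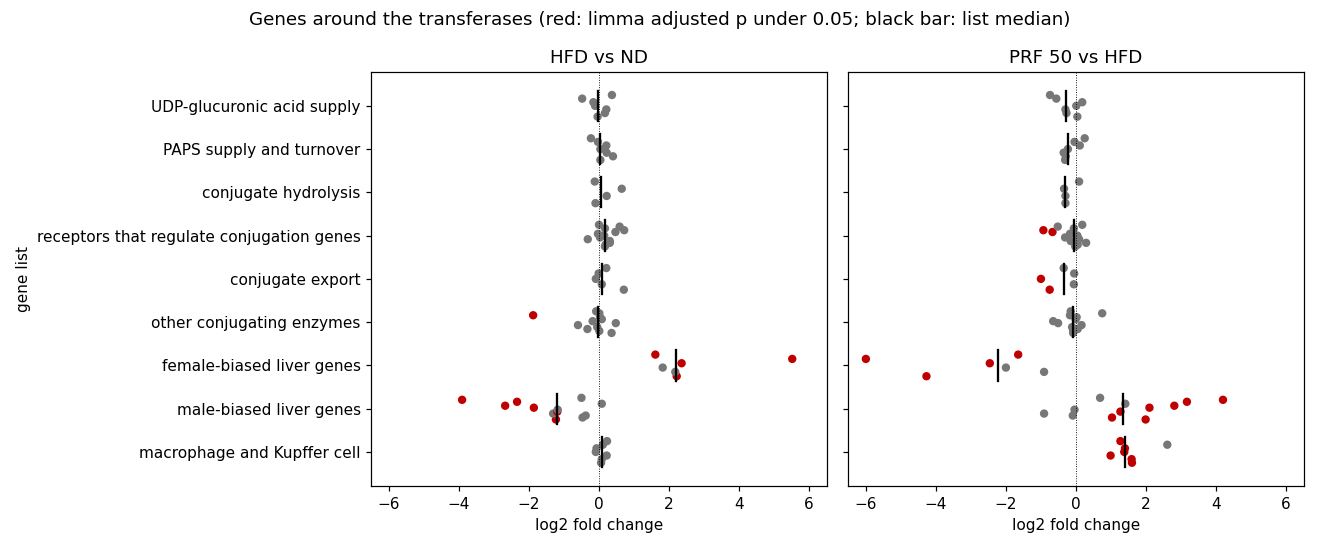
Log2 fold change of each tested gene (horizontal axis) in 8 lists of genes around the transferases and in the macrophage and Kupffer cell markers, for HFD against ND and PRF 50 against HFD, with 1 point per gene, a black bar at the list median and red for a limma adjusted p under 0.05. The male-biased median is -1.21 in HFD against ND and 1.34 in PRF 50 against HFD, 3 of the 6 female-biased points and 1 export gene (Abcb1a) are there only because they were high in HFD, and 6 of 7 macrophage and Kupffer cell markers are red in PRF 50 against HFD. The lists were chosen with earlier results of these data known.

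Cell type markers were set beside the members because whole liver was sequenced. Of 7 macrophage and Kupffer cell markers, 6 were called higher in PRF 50 against HFD (list median 1.4), against 1.43% of all rows. Limma called 0 in HFD against ND and 0 in PRF 50 against ND, with 0 and 7 at an unadjusted p under 0.05. Clec4f, Vsig4, Marco, Cd5l and Csf1r are also in the study's own list of genes that differed between PRF 50 and HFD. With earlier results known when lists were chosen, this count is description and not separate evidence. Their summed level was 45.1, 87.4 and 118.5 FPKM in ND, 56.5, 94.6 and 101.0 FPKM in HFD, and 337.4, 196.4 and 232.2 FPKM in PRF 50, with Cd5l the most abundant and none at 0 in all livers. The number called in PRF 50 against HFD was 5 without HFD animal 1, 0 without HFD animal 2, HFD animal 3 or PRF 50 animal 3, 1 without PRF 50 animal 10, 6 without PRF 50 animal 9, 3 with all 9 mice in 1 fit and 1 with no minimum level. For PRF 50 against ND it was 1 without ND animal 9 or PRF 50 animal 9 and 2 with all 9 mice in 1 fit. The part of these cells in the lower Ugt1a5 and Ugt3a1 levels of PRF 50 livers was not tested. Hepatocyte markers had list medians of -0.2 in HFD against ND and 0.23 in PRF 50 against HFD, and limma called 0 of the 8 tested, with 3 and 1 at an unadjusted p under 0.05. Alternatives that called 1 of the 8 were leaving out HFD animal 1 in HFD against ND (Cps1, lower) and, in PRF 50 against HFD, a minimum of 10 FPKM, quantile normalization and no trend (Ttr, lower).

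The endothelial sum was 40.9 to 70.8 FPKM in ND, 16.1 to 54.3 FPKM in HFD, where animal 1 was lowest, and 43.0 to 66.3 FPKM in PRF 50, with Clec4g the most abundant. Stellate cell markers summed to 58.8 to 125.6 FPKM (Dcn most abundant), and cholangiocyte markers (Spp1 most abundant) to 26.0 to 28.5 FPKM in ND, 25.6 to 36.9 FPKM in HFD and 31.8 to 41.5 FPKM in PRF 50. Lymphocyte markers (Ptprc most abundant) summed to 5.3, 4.7 and 3.1 FPKM in ND, 2.2, 2.6 and 3.0 FPKM in HFD, and 7.5, 4.3 and 3.7 FPKM in PRF 50. The HFD sums were below all ND and all PRF 50 sums, but Ptprc marks leukocytes in general. Without it the other 5 markers summed to 4.49, 3.69 and 2.0 FPKM in ND, 1.38, 1.34 and 1.65 FPKM in HFD, and 3.59, 1.99 and 1.35 FPKM in PRF 50, so that PRF 50 and HFD overlapped. Ptprc differed by 0.82 between PRF 50 and HFD (limma adjusted p 0.0627), and was called with all 9 mice in 1 fit. The part of these cells in the transferase levels was not tested. Markers of other tissues that also express some of these transferases, or that lie near the liver, were listed at low levels. Pancreas acinar markers summed to 0.1 to 1.2 FPKM, with Prss2, Cpa1 and Amy2b listed at 0. Intestinal markers summed to 1.6 to 3.7 FPKM, with Cdx2, Alpi, Sis and Fabp6 listed at 0. Kidney tubule markers summed to 0 to 0.1 FPKM, with Kap, Slc12a1 and Aqp2 listed at 0. Male labels were checked as well: Xist was at 0.0 FPKM to 1 decimal in all 9 livers, and 4 Y-linked genes summed to 43.8 to 71.6 FPKM. The most abundant of these, Eif2s3y, was called lower in PRF 50 against HFD (-0.45, limma adjusted p 0.0272). That call was lost with all 9 mice in 1 fit and whichever mouse was left out.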

How the data were processed

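RNA from 9 livers was measured, 3 each from ND, HFD and PRF 50 mice. Read trimming by the authors used FASTX_Trimmer and BBMap, TopHat then aligned to mm10 (the same assembly as GRCm38), and Cufflinks gave FPKM. The authors also describe processing of read counts with EdgeR, by FPKM and geometric normalization. The deposited values are log2 of FPKM plus a constant, read as 1 because the lowest value is 0; the FPKM used here were taken back from that scale. Groups were compared 2 at a time in R 4.3.3 with limma 3.58.1 (lmFit, eBayes with a trend, two-sided) on rows that averaged 1 FPKM or more in the 6 mice, and p-values were adjusted over all rows tested (Benjamini-Hochberg). Tables were handled with python 3.11.15, pandas 2.3.3 and numpy 2.4.6, and the fit was checked on simulated data. The tables hold no counts, so counting error is not known, and only relative depth was estimated, from the most common ratio between low values of 2 mice.

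Values in each mouse are given for members with an adjusted p under 0.05, or an unadjusted p under 0.05 with more than 2-fold, in any comparison, and for the member with the highest mean of each subfamily. From each list of genes around the transferases, genes with an adjusted p under 0.05 are named. The members and lists were chosen with earlier results of these data known. The alternatives tried were each mouse left out in turn, a single fit of all 9 mice, a pseudocount of 0.1, no minimum level or 10 FPKM, median-of-ratios scaling, quantile normalization and no trend. Transcripts came from GENCODE M21 and promoters from RefSeq. The authors' gene annotation and raw reads were not used here, so how shared reads were divided among paralogs was not analysed here.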

Additional observations from a re-analysis of the deposited data

How the results depend on the processing

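The share of all rows called under each alternative is not given here. Counts of members or list genes under an alternative therefore do not show whether calls were lost there alone or among all rows. The number of transferase genes called by limma in HFD against ND was 3, with Ugt2b38, whose direction was fixed, among them. It became 1 with all 9 mice in 1 fit (Ugt3a1, higher in HFD and not among those 3), 1 with no minimum level (Ugt2b1), and 0 to 2 with 1 mouse left out. For PRF 50 against HFD it was 2 and became 1 with all 9 mice in 1 fit (Ugt3a1) and 0 to 2 with 1 mouse left out. With no minimum level it was also 2, but those were Sult3a1 and Ugt3a1. Sult3a1 was listed at 0 in every PRF 50 liver and entered that fit only through HFD. Its direction was therefore fixed, and that call is not evidence of a change. For PRF 50 against ND it was 0 and became 1 (Ugt1a5) with all 9 mice in 1 fit, 1 with a pseudocount of 0.1, 1 with a minimum of 10 FPKM, and 0 to 1 with 1 mouse left out. With no minimum level p-values were adjusted over more genes, and with 1 mouse left out the fit had fewer samples. For the other moves the cause was not tested.

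For the 46 single-gene differences tried, 586 alternatives were computed. Of these, 448 kept direction and side of the threshold, 133 kept direction but were no longer past it, 5 were newly past it, and 0 changed direction. The 46 include fits of Ugt2b38, Abcb1a, Cyp2b13 and Hao2 whose direction was fixed by the minimum level. The member differences given above as changing sign, such as those of Ugt2b36 and Sult1a1, are not among the 46. The 0 therefore says nothing about members outside them. With a minimum of 10 FPKM, Ugt2b38, Sult5a1, Abcb1a, Cyp2b13 and Hao2 had no value, nor had Hao2 without HFD animal 2 or 3. With 3 mice in a group, leaving out 1 leaves 2, and a call that is lost then may reflect the smaller group. No paired analysis was possible because the groups share at most 1 animal number. Read counts are not known and estimated depth differed between livers (0.969 to 1.597 relative to HFD animal 1), so levels near 1 FPKM, as for Ugt2b38 in HFD, carry a counting error that could not be computed.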
